A study of Mus musculus with 37 samples.

Results

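The genes described here encode the protein subunits of the mitochondrial respiratory chain that are carried in the nucleus. They were chosen by a rule on symbols alone, applied to every gene in all 4 deposited tables. Names had to begin with Nduf and a subunit letter and number, with Sdha to Sdhd, or with Uqcr, Cyc1, Cox4 to Cox8 or Atp5. The rule used no measured value, but it was written with earlier results of these data known. The rule took 85 of 24411 genes: 37 of complex I, 4 of complex II, 9 of complex III, 18 of complex IV and 17 of complex V. Because it works on names, it places Ndufa4 with complex I, although its protein is found in complex IV, and it keeps Atp5s and Atp5sl, whose products help assemble complexes and are no subunits of ATP synthase. The subunits encoded in mitochondrial DNA are not among the members.

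Complex I passes electrons from NADH to ubiquinone and complex II passes them from succinate, linking the chain to the citric acid cycle. Complex III hands the electrons on to cytochrome c, complex IV passes them to oxygen, and complex V (ATP synthase) uses the resulting proton gradient to make ATP. Apart from complex II, each complex has a catalytic core and a larger number of accessory subunits. Several complex IV subunits exist as isoforms of which one is made in most tissues and the other mainly in muscle, lung or testis. Neurons depend on this chain for the ATP that ion pumping and synaptic transmission consume.

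The study changed the amount of Tet2, an enzyme that oxidizes methylated cytosine, in mouse neurons, and measured polyadenylated RNA in 37 libraries of 4 experiments. Neuronal nuclei came from the hippocampus of C57/Bl6 mice, either WT (n = 4, with Tet2 fl/fl alleles per the design text) or CamKIIaCreERt2;Tet2 cKO (n = 3), in which the CamKIIa promoter limits the Cre recombinase to the neurons that use it. No age and no induction schedule is given. The first knockdown compared embryonic day 17 C57/Bl6 primary neurons infected with lentivirus carrying shLuciferase (n = 6) or shTet2 (n = 6). The second knockdown compared primary neurons labelled shLuc (n = 6) with neurons labelled Tet2 KD (n = 6). Its libraries all have 3d within their column names, a label the first knockdown lacks. The names alone do not say what 3d means. The overexpression experiment set primary neurons labelled synGFP (n = 3) against others labelled Tet2 OE (n = 3). Nothing says that the libraries of a group came from separate cultures, so p-values measure the spread between these libraries, which may be technical. In these last experiments a library is called by the number in its column name.

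Depth ranged from 2709421 to 22091432 reads in the libraries labelled shTet2 and from 3029938 to 43788798 in shLuciferase. It ranged from 4785087 to 22781534 in the second knockdown and from 6377244 to 14882249 in the nuclei. The Tet2 OE libraries held 66684922 to 73220675 reads and the synGFP libraries 16988077 to 48321564, so in that experiment depth and group cannot be told apart. Tet2 itself stood at 893 to 1070 normalized counts in WT nuclei and 484 to 866 in cKO, at 348 to 528 in shLuc and 88.2 to 296 in Tet2 KD, and at 876 to 2391 in synGFP and 2815 to 5592 in Tet2 OE. In the first knockdown it overlapped between shTet2 (315 to 672) and shLuciferase (167 to 720), with the lowest value in a control, so directions from that experiment are those of libraries so labelled. Neuronal markers were present throughout, at a summed level over 9 genes of 36169 or more normalized counts in every library of the nuclei and the knockdowns, and at 62110 to 119548 in synGFP and 99119 to 105084 in Tet2 OE. Astrocyte markers (8 genes) were present in the cultures too, at 10822 to 20169 in shLuciferase and 12457 to 16837 in libraries labelled shTet2. They summed to 6196 to 9107 in shLuc and 6036 to 7709 in Tet2 KD. In the overexpression experiment they reached 53282 to 156630 in synGFP and 92983 to 107699 in Tet2 OE, near the neuronal sums. Oligodendrocyte lineage markers (8 genes) summed to 3778 to 8377 in WT nuclei and 5083 to 6456 in cKO. Their sums were 3377 to 5784 in shLuciferase, 3283 to 4510 in libraries labelled shTet2, 3609 to 4568 in shLuc and 1840 to 4929 in Tet2 KD. In synGFP they were 2509 to 8908 and in Tet2 OE 1747 to 2549. Microglial markers (6 genes) summed to 0 to 46.3 in the knockdown cultures, 25.1 to 177 in the overexpression experiment and 190 to 611 in the nuclei, and none of the 6 was at 0 in all libraries of an experiment.

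Within the control groups the subunit genes spanned a wide range of RNA per kilobase of transcript. Atp5b, the catalytic beta subunit of ATP synthase, was the highest of all members in the WT nuclei at 6623 ± 1145 normalized counts per kilobase (SD, n = 4) and in shLuc cultures at 27612 ± 3139 (n = 6). In shLuciferase cultures Cox8a, a small structural subunit of complex IV, stood highest at 9727 ± 1696 (n = 6), ahead of Cox4i1 at 6998 ± 1202 and Atp5b at 6984 ± 269. The last 2 did not differ beyond their spread.

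**Figure D1:**
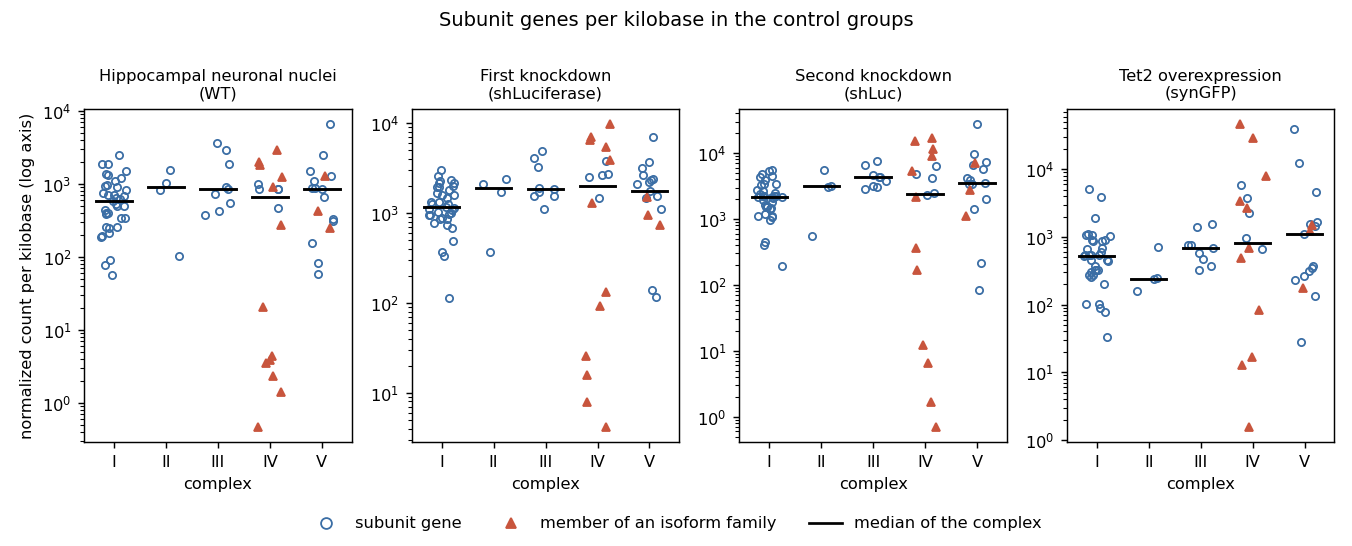
Normalized counts per kilobase (log axis) of each subunit gene in the 4 control groups, by complex. Circles are genes, triangles the genes of isoform families, and black lines the medians over a complex; genes at 0 are not drawn. The low triangles in complex IV are the second isoforms, which in the nuclei stood between 0.466 and 20.7 per kilobase.

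The synGFP cultures had a different order. There Cox7a2 stood at 46603 ± 13538 normalized counts per kilobase (n = 3), the stalk subunit gene Atp5o at 39326 ± 12808 and Cox7b at 29164 ± 7414, while Cox4i1, among the highest in the other 3 experiments, stood at 680 ± 251. Atp5o overlaps 3 genes on the other strand, among them Itsn1, so part of its reads could belong to these. Tables were normalized separately, so only the order within a table is compared. In complex II, Sdhb, the iron-sulfur subunit, was the highest of 4 genes in all 4 control groups (1572 ± 292 per kilobase in the nuclei). Sdhc, a membrane anchor, was the lowest in 3 of them (103 ± 23.6 in the nuclei), a level that depends on its long annotated transcript of 3171 bases.

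The isoform pairs of complex IV were uneven in all 4 control groups. In the nuclei Cox4i1 stood at 2922 ± 367 per kilobase and its partner Cox4i2, known from lung, at 3.79 ± 7.58, listed at 0 in 3 of 4 WT libraries. The muscle isoforms Cox6a2, Cox7a1 and Cox8b stood at 20.7 ± 11.9, 4.40 ± 7.42 and 3.49 ± 2.95 per kilobase, beside 1828 ± 392 for Cox6a1, 895 ± 275 for Cox7a2 and 2026 ± 447 for Cox8a. Cox6b2, Cox7b2 and Cox8c, known from testis, stood at 2.35, 1.40 and 0.466. The ubiquitous isoform was thus the higher one in each of these pairs. Of the 3 genes for the same mature c-ring subunit of ATP synthase, Atp5g3 was highest per kilobase in the nuclei (1300 ± 325) and in both knockdown controls (1501 ± 145 in the first, ahead of 957 ± 168 for Atp5g2), and in synGFP it did not differ beyond the spread from Atp5g2 (1209 ± 73.7 and 1523 ± 1035). The place of Atp5g1 below Atp5g3 depends on its long annotated transcript of 4715 bases, against 723 for Atp5g3. Before division by length, Atp5g1 stood at 2766 to 4263 normalized counts in shLuciferase and Atp5g3 at 988 to 1284.

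In the hippocampal nuclei, where Tet2 was deleted in the animal itself, no subunit gene passed the test. All but 5 of the 84 members tested nevertheless had a higher mean log2 value in the cKO, against 44.9% of all genes, and the median over the members was 0.36 on the log2 scale against −0.09 over all 18780 genes. The medians were 0.36 for complex I, 0.20 for complex II, 0.35 for complex III, 0.42 for complex IV and 0.34 for complex V. limma called 0 of 84 members at an adjusted p of 0.05, and 0% of all genes passed. At an unadjusted p under 0.05 there were 10 members above WT and 0 below, 11.9% of the members against 3.04% of all genes above and 3.94% below. edgeR and DESeq2, run on reads recovered from the table, also called 0 members, and called 1 and 76 genes of all. In bulk nuclei, fewer cells of a type and less RNA per cell cannot be told apart.

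Cox4i1, the regulatory subunit of complex IV (chromosome 8, 120668222 to 120674207, plus strand, mm10), stood at 2257, 2623, 2065 and 1997 normalized counts in WT 1, 2, 5 and 6 and at 3192, 3039 and 3279 in cKO 3, 4 and 9. All 3 cKO libraries lay above all 4 WT libraries, at a difference of 0.51 on the log2 scale (SE 0.18, interval at 95% confidence 0.12 to 0.90, adjusted p 0.632). Ndufa3, an accessory subunit of complex I (chromosome 7, 3617373 to 3620327), stood at 218, 169, 161 and 164 in WT and at 313, 287 and 483 in cKO. Its log2 fold change of 0.99 (SE 0.34) had the smallest adjusted p among the members, 0.616. Both genes share bases with a gene on the other strand (Emc8 and Tfpt), so part of their reads could belong to the partner.

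The same ordering of libraries was seen in single genes of complexes III and V. Uqcr10, a small accessory subunit of complex III, stood at 442, 441, 320 and 293 in WT and at 580, 563 and 522 in cKO, a log2 change of 0.59 (SE 0.27, adjusted p 0.711). Atp5l, the g subunit in the membrane part of ATP synthase, stood at 603, 584, 364 and 376 in WT and at 768, 677 and 711 in cKO (0.61, SE 0.26, adjusted p 0.699). In these 2 genes the groups did not overlap, and WT 5 and 6 lay below WT 1 and 2. For Sdhc, with the smallest p of complex II, WT (395, 374, 229 and 307) and cKO (514, 348 and 417) overlapped, at 0.40 (SE 0.30, adjusted p 0.826). In all, 17 members (20.2%) had every cKO library above every WT library, against 3.55% of all genes, and 0 had every cKO library below, against 3.41%.

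Fold changes of several catalytic subunits lay nearer to 0. Ndufv1, which binds NADH, had a log2 fold change of 0.04 (95% confidence interval −0.41 to 0.48), Sdha 0.12 (−0.34 to 0.59), Cyc1 0.04 (−0.35 to 0.44), Uqcrfs1 0.04 (−0.41 to 0.49) and Atp5b 0.07 (−0.36 to 0.50), and Ndufs1, the largest complex I subunit, was at −0.15 (−0.75 to 0.45). Over the 18 catalytic genes the median was 0.15. Members with a transcript under 1000 bases (49 genes) had a median of 0.44 and the longer ones (35 genes) 0.23. Over all genes the short ones had a median of 0.14 and the long ones −0.10, and with the trend on transcript length removed the median over the members was 0.25, against 0.01 over all genes.

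Other RNA moved with the groups too. The 6 nuclear-retained RNAs on the list (Malat1, Neat1, Meg3, Snhg11, Miat and Rian) had a median log2 change of −0.66, with Rian at −0.03, and sums of 94111 to 171996 normalized counts in WT and 65813 to 88870 in cKO, with no overlap and 0 genes called. The WT libraries with the highest sums, WT 5 (171996) and WT 6 (148563), were those where the median subunit gene was lowest (−0.37 in each, against 0.04 and 0.06 in WT 1 and 2 and 0.03 to 0.32 in cKO, on the log2 scale about the gene's mean). The 78 ribosomal protein genes had per-library medians of −0.41 to −0.04 in WT and 0.13 to 0.31 in cKO. Astrocyte markers summed to 1306 to 3389 in WT and 1121 to 1622 in cKO (1 of 8 positive). The part of these RNAs in the subunit values was not tested.

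**Figure D2:**
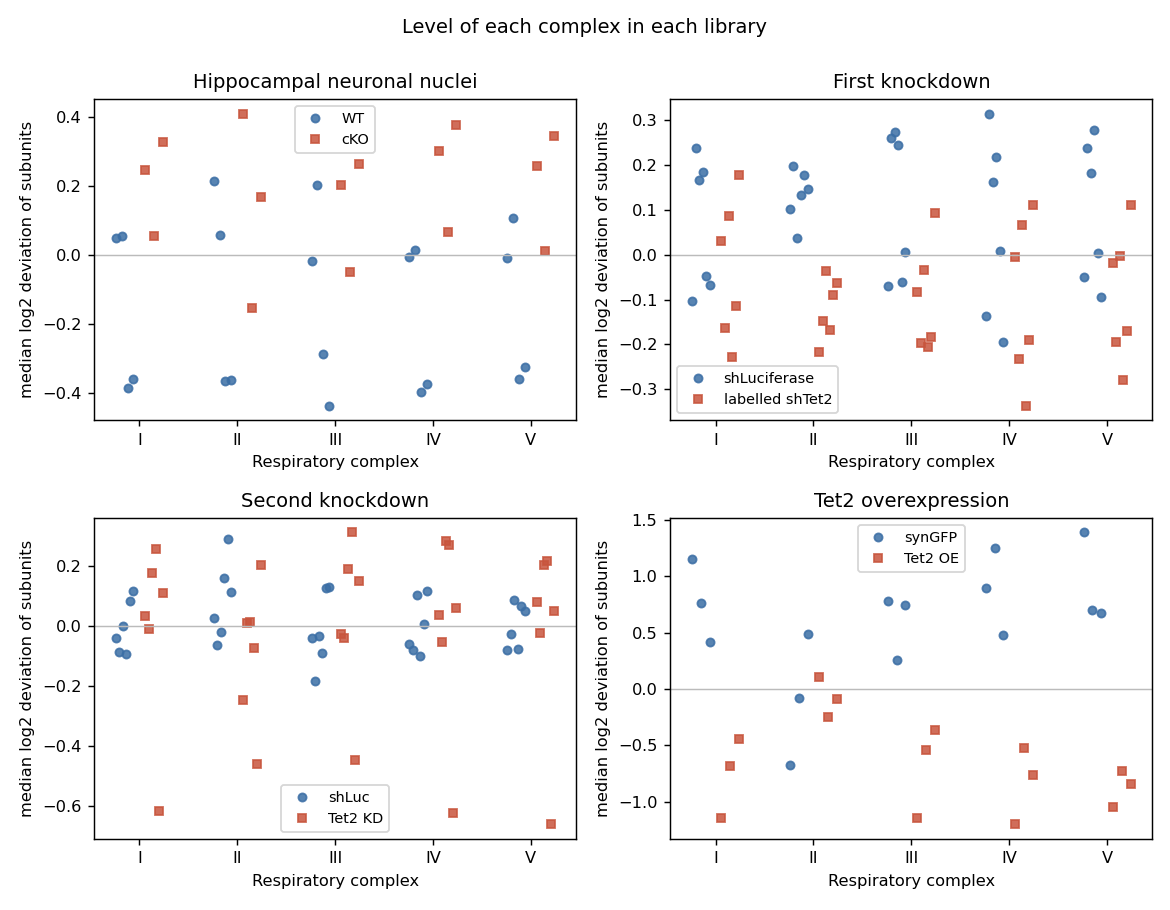
Median over the subunit genes of a complex of the log2 deviation from each gene's mean over the table, 1 point per library, controls as blue circles and treated libraries as red squares. In the nuclei WT 5 and 6 lie low in all 5 complexes, in the second knockdown Tet2 KD library 11 lies lowest in all 5, and in the overexpression experiment the groups separate in complexes I, III, IV and V but overlap in complex II.

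In the first knockdown, 6 of 85 subunit genes fell in the libraries labelled shTet2 and 0 rose. The fallen genes were Ndufb8 and Ndufa2 of complex I, Sdhc of complex II, Uqcrfs1 and Uqcr10 of complex III and Atp5f1 of complex V, with log2 fold changes between −0.95 and −0.52. This was 7.06% of the members, where limma called 1.93% of all 18315 genes in either direction and 1.28% as lower. Complex IV had 0 of 18 called, and its smallest p among genes was that of Cox5a (−0.40, adjusted p 0.149). The median over the members was −0.11, with 21 of 85 positive, against 0.09 and 56.5% over all genes. At an unadjusted p under 0.05 there were 14 members lower (16.5%, against 6.52% of all genes) and 0 higher (against 7.73%).

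Ndufb8, an accessory subunit in the membrane arm of complex I (chromosome 19, 44548572 to 44555440, minus strand), ranged from 1242 to 2148 normalized counts in shLuciferase (median 1794) and from 765 to 1161 in libraries labelled shTet2 (median 862). All 6 of the latter lay below all 6 controls, and the log2 change was −0.95 (SE 0.15, interval −1.27 to −0.63 at 95% confidence, adjusted p 0.00163). Ndufa2, another accessory subunit of complex I, ranged from 1124 to 1818 (median 1224) and from 547 to 904 (median 758), again with no overlap, and changed by −0.82 (SE 0.16, adjusted p 0.00808). It overlaps Tmco6 on the other strand.

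Atp5f1, the b subunit of the peripheral stalk that holds ATP synthase together (chromosome 3, 105942698 to 105960099, minus strand, overlapping Wdr77 on the other strand), ranged from 1947 to 3034 in shLuciferase (median 2223) and from 1318 to 1732 in libraries labelled shTet2 (median 1460). Its groups did not overlap either, and it changed by −0.66 (SE 0.13, adjusted p 0.00898). Uqcrfs1, the Rieske iron-sulfur protein that passes electrons within complex III (chromosome 13, 30540308 to 30545362, minus strand), went from 2540 ± 151 to 1769 ± 114 (SD, n = 6 each), with a range of 2334 to 2747 against 1631 to 1967. Its change of −0.52 (SE 0.11, adjusted p 0.0156) was the smallest of the 6 and stood beside the smallest spread.

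Sdhc (chromosome 1, 171127165 to 171150603, minus strand) went from 1162 ± 127 in shLuciferase to 762 ± 114 in libraries labelled shTet2 (SD, n = 6 each), and changed by −0.62 (SE 0.15, adjusted p 0.0322). Uqcr10 ranged from 1114 to 1674 and from 743 to 1100, and changed by −0.64 (SE 0.15, adjusted p 0.0293). Neither overlapped between groups, but both calls were lost without shLuciferase 2, 3 or 5 or library 2 or 4 labelled shTet2, that of Sdhc also without library 1 and that of Uqcr10 also without library 5, at adjusted p of 0.0534 to 0.0858. The other 4 calls held whichever library was left out. A seventh gene without overlap, Ndufs8, an iron-sulfur subunit of complex I, changed by −0.68 (SE 0.18) and had an adjusted p of 0.0539. These 7 were 8.24% of the members with every treated library below every control, against 1.39% of all genes, and 0 members had the reverse order, against 0.863%.

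The other subunits of complex II did not pass the test, at −0.17 for Sdha, −0.01 for Sdhb and −0.22 for Sdhd. The median of its 4 genes lay between 0.04 and 0.20 in each shLuciferase library and between −0.22 and −0.04 in each library labelled shTet2. This is the 1 complex whose per-library median separated the groups, a description over 4 genes of which Sdhc is one. Among the most abundant subunits, Atp5b went from 13382 ± 516 to 12731 ± 446 (log2 fold change −0.07, 95% confidence interval −0.29 to 0.14) and Cox4i1 from 5353 ± 919 to 4794 ± 875 (−0.16, −0.46 to 0.14). The isoforms Cox7a1 and Cox8b were near the detection limit, at 2.73 to 19.3 and 0 to 14.9 normalized counts in shLuciferase against 0 to 6.82 and 0 in all 6 libraries labelled shTet2, and neither was called. Of the marker lists, neuronal markers overlapped between the groups (43773 to 57403 and 42939 to 51717, with 1 of 9 called, Tubb3 at −0.67).

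In the second knockdown, 7 of 83 members rose and 7 fell. This was 16.9% of the members, below the 25.9% called over all 16164 genes, (12.6% as higher and 13.2% as lower). The fallen genes were Ndufa2, Ndufb8, Ndufs8, Sdhc, Atp5f1, Atp5j and Atp5s, and the risen ones Cyc1, Uqcrfs1, Ndufa10, Ndufab1, Ndufb2, Ndufv1 and Atp5d. Complex IV again had 0 called, of 16 tested (Cox5b 0.31, adjusted p 0.0571). The median over the members was 0.01, against −0.02 over all genes, with 44 of 83 positive.

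Ndufa2 ranged from 2040 to 2692 normalized counts in shLuc (median 2188) and from 566 to 1308 in Tet2 KD (median 1172), without overlap, and changed by −1.12 (SE 0.16, 95% confidence interval −1.45 to −0.79, adjusted p 3.5e-05). Ndufb8 ranged from 2751 to 3359 (median 2990) and from 999 to 2062 (median 1712) and changed by −0.91 (SE 0.13, adjusted p 5.7e-05). Sdhc ranged from 1659 to 1917 (median 1751) and from 886 to 1407 (median 1119) and changed by −0.67 (SE 0.11, adjusted p 1.4e-04). In each of these the highest knockdown library stayed below the lowest control.

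Atp5f1 ranged from 4384 to 7307 in shLuc (median 5425) and from 2268 to 3848 in Tet2 KD (median 3337) and changed by −0.82 (SE 0.14, adjusted p 1.8e-04). Ndufs8 ranged from 2048 to 2337 and from 979 to 1715 and changed by −0.60 (SE 0.12, adjusted p 7.6e-04). These also had no overlap, so that all 5 members with every knockdown library below every control (6.02%, against 6.53% of all genes) are named here. Atp5j, the F6 subunit of the peripheral stalk, overlapped between groups and changed by −0.43 (SE 0.13, adjusted p 0.0198), and it overlaps Gabpa on the other strand. Atp5s, at 98.6 to 153 in shLuc and 48.0 to 122 in Tet2 KD, changed by −0.59 (SE 0.22, adjusted p 0.05, just under the threshold) and lost its call under 11 of 21 alternatives.

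Cyc1, the cytochrome c1 of complex III (chromosome 15, 76343523 to 76346260, plus strand), ranged from 5633 to 7602 in shLuc (median 6457) and from 7851 to 11620 in Tet2 KD (median 10708). It was the 1 member with every knockdown library above every control (1.2%, against 5.7% of all genes), at 0.63 (SE 0.11, 95% confidence interval 0.39 to 0.86, adjusted p 3.5e-04). Uqcrfs1, its partner in the electron path through complex III, ranged from 4436 to 5616 and from 5265 to 7857 and rose by 0.39 (SE 0.10, adjusted p 0.0087). Tet2 KD 5 was the 1 knockdown library inside the control range.

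Among the risen genes of complex I, Ndufa10 changed by 0.40 (SE 0.11, adjusted p 0.00994) and Ndufab1, the mitochondrial acyl carrier protein, by 0.40 (SE 0.12, adjusted p 0.0183). Ndufb2 changed by 0.46 (SE 0.15, adjusted p 0.0337) and Ndufv1 by 0.29 (SE 0.09, adjusted p 0.0247). Atp5d, the delta subunit of the central stalk of ATP synthase, changed by 0.33 (SE 0.10, adjusted p 0.0145), and it overlaps Cbarp on the other strand. Of these calls 3 were lost with a single library left out. That of Ndufb2 was lost without shLuc 1, 3, 7 or 8 or Tet2 KD 4, 6 or 10 (adjusted p 0.056 to 0.0917), that of Ndufv1 without shLuc 1, 2 or 9 or Tet2 KD 6 or 12 (0.052 to 0.0646) and that of Ndufab1 without Tet2 KD 10 (0.0533).

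One library, Tet2 KD 11, weighed on many of these values. For Cyc1 (11620 normalized counts) and Ndufa10 (6796), however, it was the highest of the knockdown libraries. In Tet2 KD 11 the median subunit gene lay 0.61 below its mean on the log2 scale, while the other 5 knockdown libraries lay between −0.02 and 0.25 and the shLuc libraries between −0.09 and 0.12. In the same library 990 other genes with transcripts under 1000 bases had a median of −0.53 and 79 ribosomal protein genes one of −0.93, against −0.09 to 0.33 for the latter in the other knockdown libraries. Without it 22 members rose and 7 fell (26.5% and 8.43%, against 12.4% and 12.7% of all genes), and the median over the members was 0.14. The 14 genes above all kept their calls, and the 15 added ones were higher. They included Cox6a1 (0.40, adjusted p 0.0135), Cox5b (0.36, adjusted p 0.029) and Cox8a (0.30, adjusted p 0.0449) of complex IV, Uqcrc1 and Uqcrq of complex III, and the c-ring genes Atp5g1 (0.34, adjusted p 0.0044) and Atp5g3 (0.33, adjusted p 0.0162). The markers also moved with the groups: neuronal markers summed to 57734 to 64892 in shLuc and 42587 to 54087 in Tet2 KD, without overlap (2 of 9 higher, 3 lower), and their part in the subunit values was not tested.

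**Figure D3:**
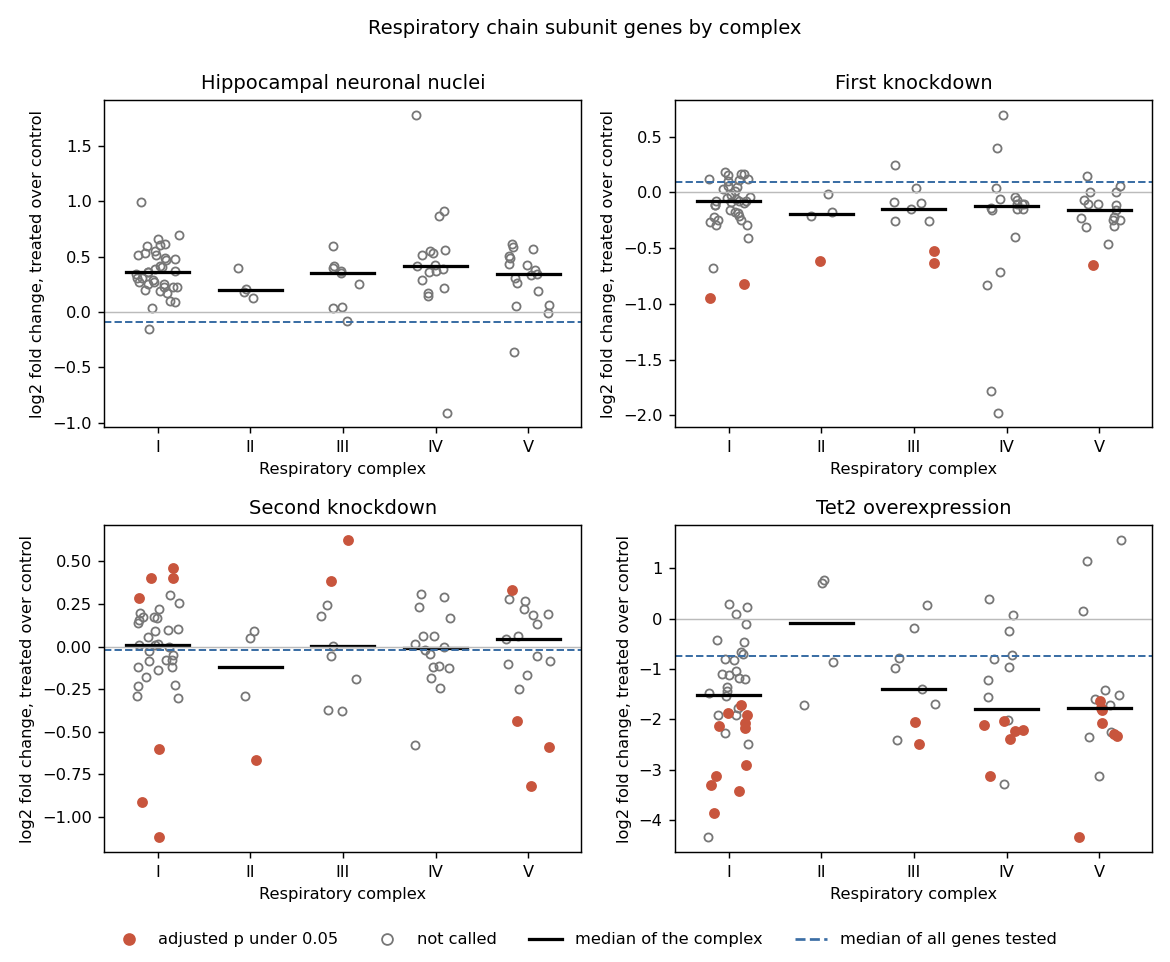
log2 fold change (treated over control) of each subunit gene tested, by complex, in the 4 experiments. Filled red points passed an adjusted p of 0.05 in limma, open grey points did not, black bars are the medians over a complex and the dashed blue line is the median of all genes tested. The nuclei have 0 filled points, the first knockdown 6, all lower, the second 7 higher and 7 lower, and the overexpression experiment 26, all lower; each panel has its own axis.

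In all, 4 subunit genes fell in both knockdowns: Ndufa2, Ndufb8, Sdhc and Atp5f1. They are 4.82% of the 83 members tested in both, and 1.18% of 15796 genes fell in both. No member rose in both, against 0.336% of all genes. The knockdowns do not share control libraries, and the differences between the 2 changes (second minus first) were −0.30 for Ndufa2 (95% confidence interval −0.78 to 0.17), 0.03 for Ndufb8 (−0.39 to 0.45), −0.05 for Sdhc (−0.40 to 0.30) and −0.16 for Atp5f1 (−0.55 to 0.22). They are subunits of 3 complexes, and none of them belongs to complex III or IV.

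In complex III, 2 of 9 genes changed differently in the 2 cultures. Uqcrfs1 fell in the first knockdown and rose in the second, and the difference between the changes was 0.91 (SE 0.13, 95% confidence interval 0.63 to 1.18, adjusted p 2.9e-04 over 15796 genes). Of all genes 9 (0.057%) were called lower in the first and higher in the second, and 0.0127% the other way round, with 0 members. Cyc1 changed by −0.10 (SE 0.11, adjusted p 0.708) in the first and rose by 0.63 in the second, a difference of 0.72 (SE 0.15, 95% confidence interval 0.42 to 1.02, adjusted p 0.0096). These were the 2 members whose change differed between the knockdowns (2.41%, against 1.83% of all genes, made up of 0.905% with the second above the first and 0.924% below), and both calls held whichever library was left out (largest adjusted p 9.9e-04 and 0.023). Without Tet2 KD 11, or without library 6 labelled shTet2, 4 members differed.

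**Figure D4:**
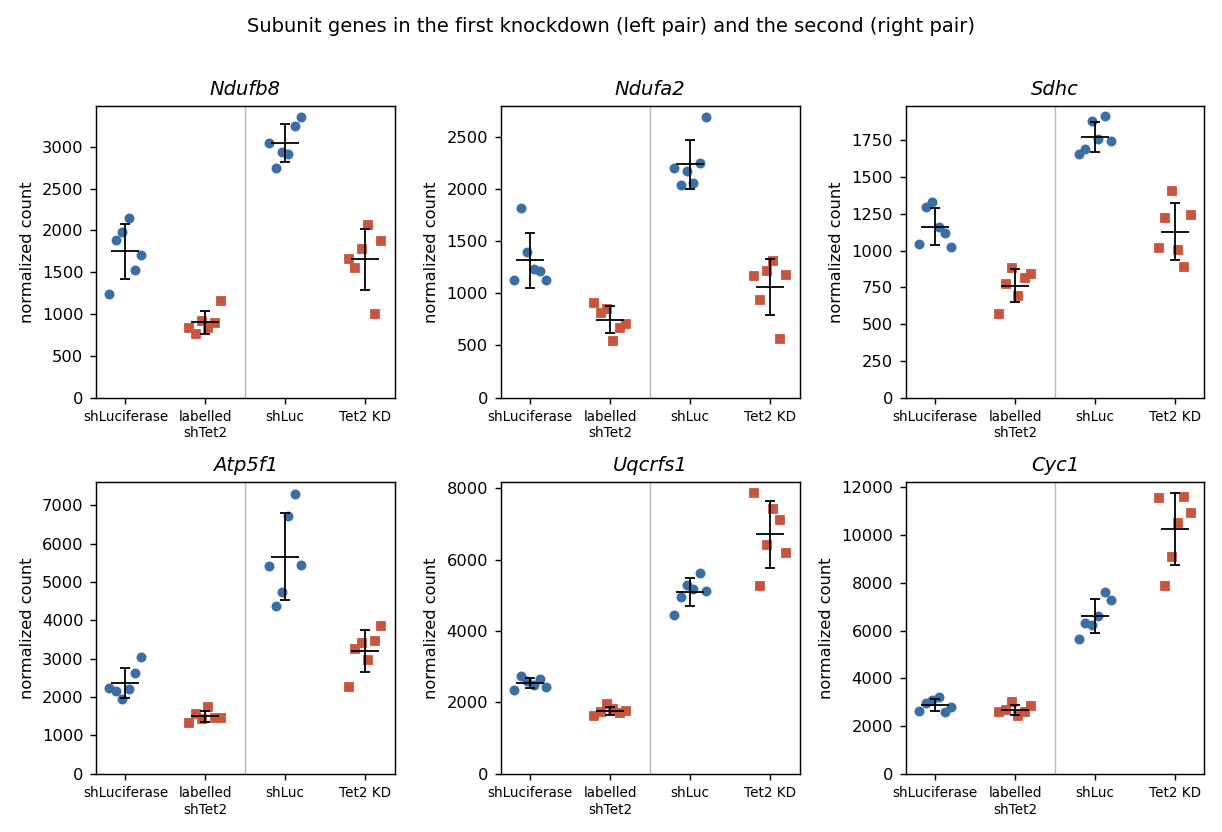
Normalized counts (linear axes from 0) of 6 subunit genes in the 2 knockdowns, 1 point per library, with the mean and SD of each group of 6. Ndufb8, Ndufa2, Sdhc and Atp5f1 are lower than their controls in both, Uqcrfs1 is lower in the first and higher in the second, and Cyc1 is higher in the second; levels are not comparable between the 2 tables.

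Promoter sequence is shown for some of the genes called or separated in the knockdowns: Ndufb8, Ndufs8 and Uqcrfs1. It was read because Tet2 acts on methylcytosine, which in mammals lies mostly at CG dinucleotides. In the RefSeq promoter table (GRCm38.p6) 70 of the 85 members were matched, and windows of the 250 bases before the start were read. The stretches below run 5′ to 3′ on the strand of the gene, with each CG in capitals. That of Uqcrfs1 is limited to its 204 bases outside annotated exons. Sdhc has no entry, and Ndufa2 and Cyc1 were not among the matched members. The window of Atp5f1 lies in annotated exons and is not shown.
Ndufb8 (chr19:44555443-44555692, minus strand): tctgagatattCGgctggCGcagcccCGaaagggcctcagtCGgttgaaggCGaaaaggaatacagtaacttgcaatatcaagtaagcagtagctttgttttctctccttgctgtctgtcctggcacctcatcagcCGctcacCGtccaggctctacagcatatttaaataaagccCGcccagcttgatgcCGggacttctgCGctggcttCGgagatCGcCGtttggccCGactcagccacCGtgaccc
Ndufs8 (chr19:3912775-3913024, minus strand): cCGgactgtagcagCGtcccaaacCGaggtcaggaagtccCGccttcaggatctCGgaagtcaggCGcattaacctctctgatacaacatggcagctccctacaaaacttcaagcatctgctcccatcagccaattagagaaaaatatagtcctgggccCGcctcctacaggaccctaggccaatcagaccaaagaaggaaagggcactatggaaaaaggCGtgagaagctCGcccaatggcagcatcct
Uqcrfs1 (chr13:30545363-30545566, minus strand): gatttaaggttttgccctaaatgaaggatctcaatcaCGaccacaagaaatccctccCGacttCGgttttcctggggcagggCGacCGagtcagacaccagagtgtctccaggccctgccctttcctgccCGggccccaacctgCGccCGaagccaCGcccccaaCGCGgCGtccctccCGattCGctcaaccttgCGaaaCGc

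The full windows held 15 CG dinucleotides for Ndufb8, 9 for Ndufs8, 23 for Uqcrfs1 and 20 for Atp5f1, and the median over all 32851 windows in the table was 6. Searched on both strands, the NRF1 motif (GCGCA joined to TGCGC, its own reverse complement) was found in 4 of 76 windows of members (5.26%) and in 0.782% of all windows. The ETS motif CCGGAAG was in 12 of 76 (15.8%, against 6.91% of all), the overlapping form CGGAAGT, added after these windows had been read, in 7 (9.21%, against 4.92%) and the YY1 motif AAGATGGC in 2 (2.63%, against 1.56%). Of the genes above, the windows of Atp5f1 (bases −51 to −45 from the start) and Ndufs8 (−196 to −190) held CGGAAGT, and those of Ndufb8 and Uqcrfs1 held none of the motifs. The Atp5f1 window, with its match, lies in annotated exon sequence. The set of all windows was not matched to the members for CG content, and each motif but that of YY1 contains CG. A match is a string of letters, and no methylation was measured in these files.

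In the overexpression experiment 26 of 82 members fell and 0 rose. This was 31.7% of the members, where 9.96% of all 22399 genes were called (6.19% as higher, 3.77% as lower). The fall took in 11 of 36 genes of complex I, 2 of 9 of complex III, 6 of 16 of complex IV and 7 of 17 of complex V, and 0 of 4 of complex II. Medians were −1.51, −1.41, −1.79 and −1.77 in complexes I, III, IV and V and −0.08 in complex II, against −0.75 over all genes. Every Tet2 OE library lay below every synGFP library in 51 members (62.2%, against 19% of all genes). The members took 0.403% to 0.743% of the reads in synGFP and 0.166% to 0.222% in Tet2 OE.

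Cox7c, a small structural subunit of complex IV (chromosome 13, 86044816 to 86046904, minus strand), stood at 1409, 2354 and 2405 normalized counts in synGFP 4, 5 and 6 and at 203, 258 and 228 in Tet2 OE 3, 4 and 6, which is −3.12 on the log2 scale (SE 0.48, interval −4.14 to −2.10 at 95% confidence, adjusted p 4.4e-04). Cox6b1, which faces the intermembrane space, stood at 4453, 5576 and 4840 and at 777, 1166 and 1324 (−2.21, SE 0.42, adjusted p 0.00258). Cox7a2 stood at 24658, 40956 and 26518 and at 5638, 7139 and 6375 (−2.24, SE 0.43, adjusted p 0.00287), and Cox7b at 21064, 35607 and 30907 and at 6493, 7073 and 7492 (−2.02, SE 0.43, adjusted p 0.00598). The groups lay far apart in all 4, and synGFP 5 or 6 was the highest library in each. Cox4i1 stood at 585, 671 and 304 and at 148, 210 and 146 and was not called (−1.57, SE 0.59, adjusted p 0.0993).

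In complex III, Uqcrc1, a core subunit, stood at 3781, 2200 and 1714 in synGFP and at 462, 517 and 335 in Tet2 OE (−2.49, SE 0.47, adjusted p 0.00256). Its partner Uqcrc2 did not separate (−0.18, 95% confidence interval −1.16 to 0.80), nor did Cyc1 (−0.78, −1.82 to 0.27). Uqcr10 changed by −2.05 (SE 0.62, adjusted p 0.0431), a call lost whichever library was left out (adjusted p 0.0631 to 0.139).

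In complex I, Ndufa4 stood at 2927, 3991 and 2577 in synGFP and at 700, 861 and 680 in Tet2 OE (−2.06, SE 0.43, adjusted p 0.00498). Ndufb3, an accessory subunit of the membrane arm, stood at 409, 358 and 589 and at 65.9, 59.4 and 31.4 (−3.12, SE 0.71, adjusted p 0.00977). Ndufa13 changed by −3.87 (SE 0.93, adjusted p 0.014) and Ndufc2 by −1.88 (SE 0.46, adjusted p 0.015). Of the core subunits, Ndufs3, Ndufs7 and Ndufs8 fell (−2.14, −1.71 and −2.91), while Ndufs1 (0.30), Ndufv1 (−0.43) and Ndufv2 (0.23) were not called. The calls of Ndufs3, Ndufs7 and Ndufs8 were lost without synGFP 5 or Tet2 OE 3 or 6 and with the trend on transcript length removed. That of Ndufs8 was also lost without synGFP 4 or 6, with TMM scaling and in edgeR. Ndufs5, an accessory subunit gene, is listed at 0 in all 6 libraries.

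In complex V, Atp5d stood at 3299, 1707 and 1446 in synGFP and at 316, 534 and 405 in Tet2 OE (−2.30, SE 0.49, adjusted p 0.0058). Atp5f1 stood at 4069, 1842 and 1133 and at 428, 240 and 658 (−2.32, SE 0.55, adjusted p 0.0124), so that it was called lower in 3 of the 4 experiments, the 1 member with 3 calls. This call was lost without synGFP 4 (adjusted p 0.0785), synGFP 5 (0.0948) or Tet2 OE 4 (0.0732) and with the trend on transcript length removed (0.234). Atp5g3 changed by −2.06 (SE 0.51, adjusted p 0.0168) and Atp5b by −1.64 (SE 0.44, adjusted p 0.0241). Atp5sl fell from 691, 160 and 122 to 13.4, 12.9 and 7.24 (−4.34, SE 1.09, adjusted p 0.0177). In the opposite direction, Atp5a1, the catalytic alpha subunit, stood at 16642, 27784 and 46410 in synGFP and at 68147, 61163 and 54519 in Tet2 OE (1.13, SE 0.52, adjusted p 0.163), the 1 member with every Tet2 OE library above every synGFP library (1.22%, against 12.5% of all genes). The alpha and beta subunits of the same catalytic ring thus had fold changes of opposite sign, of which that of Atp5b alone passed the test. The Atp5b call was lost without synGFP 5 or Tet2 OE 3, 4 or 6, with TMM scaling and with the trend on transcript length removed. Atp5a1 overlaps Haus1 on the other strand, so part of its reads could belong to Haus1.

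Complex II had no call. Sdha, the catalytic flavoprotein, stood at 307, 196 and 866 in synGFP and at 387, 789 and 742 in Tet2 OE (0.70, 95% confidence interval −0.56 to 1.97), and Sdhb at 576, 966 and 863 and at 820, 1522 and 1859 (0.76, −0.25 to 1.77). Sdhc, with the smallest p of the complex, stood at 821, 1029 and 424 and at 560, 185 and 96.5 (−1.71, SE 0.65, adjusted p 0.101). All 4 overlapped between the groups. Sdhc was called without Tet2 OE 3 (−2.40) and with library totals (−2.42), and Sdhb was called higher once the trend on transcript length was removed. Whether complex II differed from the other complexes was not tested.

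**Figure D5:**
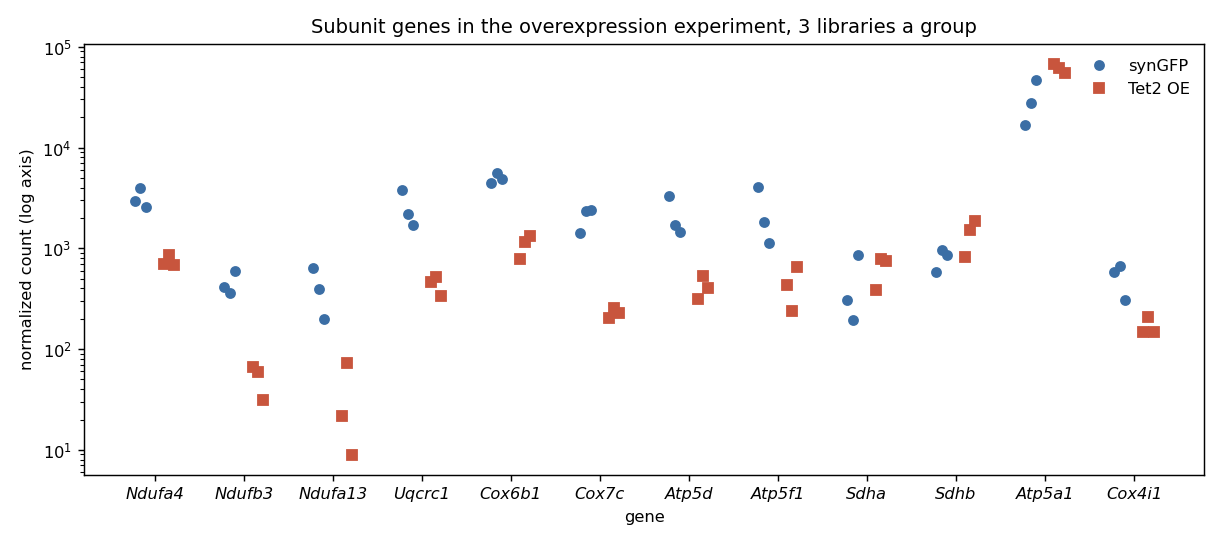
Normalized counts (log axis) of 12 subunit genes in the 3 synGFP libraries (blue circles) and the 3 Tet2 OE libraries (red squares). From Ndufa4 to Atp5f1 and in Cox4i1 all Tet2 OE points lie below all synGFP points, Sdha and Sdhb overlap, and Atp5a1 lies above.

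The number called in this experiment depended on scaling, on single libraries and on the treatment of transcript length. It was 18 with TMM scaling (22% of the members, against 9.92% of all genes) and 39 with library totals (47.6%, against 11.9%). Without synGFP 5 only Cox6b1, Cox7c and Uqcrc1 were called, 3.7% of the members against 2.91% of all genes. The count was 15 to 26 without any other library (18.3% to 31.7%, against 5.48% to 13.4% of all genes), with 16 without synGFP 4, 26 without synGFP 6, and 17, 15 and 15 without Tet2 OE 3, 4 and 6. With the trend on transcript length removed, 3 members were called (Sdhb higher, Cox7c and Atp5sl lower, with Cox7c at −1.93, adjusted p 0.0468), 3.66% against 8.37% of all genes, and the median was −0.49. Beside the members, 2397 other genes with transcripts under 1000 bases had per-library medians of 1.09, 0.77 and −0.37 in synGFP and −0.87, −0.59 and −0.66 in Tet2 OE, and 80 ribosomal protein genes medians of 0.94 to 1.35 and −1.39 to −0.90. The nuclear-retained RNAs summed to 28697 to 59690 in synGFP and 96413 to 124438 in Tet2 OE (1 of 6 called, higher). The part of length, depth or these RNAs in the fall of the subunit genes was not tested.

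Across the experiments 49 of the 85 members were called in none, 27 in 1, 8 in 2 and Atp5f1 in 3. As shares these were 57.6%, 31.8%, 9.41% and 1.18%, against 74.2%, 21.7%, 3.82% and 0.186% of the 22585 genes tested in at least 1 experiment. The 8 were Ndufa2, Ndufb8, Sdhc and Uqcrfs1 in both knockdowns, Uqcr10 in the first knockdown and the overexpression experiment, and Ndufs8, Ndufab1 and Atp5d in the second knockdown and under overexpression. Ndufs8 fell in both of its experiments, whereas Ndufab1 and Atp5d rose in the second knockdown and fell with overexpression (Ndufab1 by −3.31, adjusted p 0.0251). The overexpression calls of Ndufs8, Ndufab1 and Atp5d were each lost without synGFP 5 and with the trend on transcript length removed. That of Ndufab1 was also lost without synGFP 4 or Tet2 OE 4. In the nuclei the 8 genes and Atp5f1 had positive fold changes, such as 0.55 for Ndufb8, 0.37 for Ndufa2, 0.40 for Sdhc and 0.19 for Atp5f1, and none was called. Members that failed the filter on low values were Cox8c in the nuclei, Cox4i2 and Cox8c in the second knockdown, and Cox7a1, Cox8b and Ndufs5 in the overexpression experiment.

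Genes that build or feed the chain were also read. In the nuclei and the first knockdown 0 genes were called among the assembly factors, the ubiquinone and cytochrome c genes, the citric acid cycle genes and the regulators of mitochondrial biogenesis. In the second knockdown 4 of 14 complex I assembly factors rose and 1 fell, among them Acad9 (0.51, adjusted p 0.00171) and Ndufaf6 (0.72, adjusted p 0.00277), with Tmem186 lower (−0.44, adjusted p 0.00851). Of 21 complex IV assembly factors 3 rose and 1 fell. Cox11, which delivers copper to the complex, rose by 1.15 (SE 0.19, adjusted p 1.3e-04), Cox18 by 0.54 (adjusted p 0.00844), and Pet100 changed by −0.51 (adjusted p 0.0361). Of 6 complex III factors 1 fell, Bcs1l (−0.64, adjusted p 1.3e-04), which inserts the Rieske protein encoded by Uqcrfs1. Of 4 complex II factors Sdhaf1 rose (0.53, adjusted p 0.0224), and of 3 complex V factors Atpaf1 rose (0.54, adjusted p 0.0192) and Atpaf2 fell (−0.41, adjusted p 0.00666).

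In the same knockdown 5 of 16 citric acid cycle genes rose and 0 fell, with Suclg1 at 0.48 (adjusted p 5.8e-04), Dlat at 0.60 (adjusted p 6.9e-04) and Fh1 at 0.43 (adjusted p 0.00186). Of 10 genes for ubiquinone synthesis and cytochrome c, 3 rose and 1 fell (Coq2 −0.55, adjusted p 0.0133). Of 12 regulators of biogenesis Ppargc1a, the coactivator PGC-1 alpha, fell by 0.79 (SE 0.13, adjusted p 2.0e-04) and Tfb1m, a mitochondrial rRNA methyltransferase, by 0.84 (SE 0.22, adjusted p 0.00822), while Ppargc1b rose by 0.58 (SE 0.19, adjusted p 0.0297). All these shares are to be read against the 25.9% of all genes called in that experiment. With overexpression 0 of 14 complex I factors were called, Ttc19 of complex III rose (2.86, adjusted p 3.4e-04), Atpaf2 rose from 52.1 ± 16.4 to 839 ± 202 normalized counts (SD, n = 3 each, adjusted p 5.7e-04), and of 21 complex IV factors 1 rose and 3 fell (Cox14 −2.03, adjusted p 0.00666). Of the citric acid cycle genes 1 rose and 2 fell (Idh3b −2.71, adjusted p 0.00476), and of the regulators the mitochondrial RNA polymerase Polrmt rose by 2.52 (adjusted p 0.0223).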

How the data were processed

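The submitters' processing notes name STAR, RSEM, DESeq2 and mm10, without versions or roles. The deposited signal per library is a normalized count: its values are whole multiples of 1 step (within 0.01 reads), as gene counts divided by a size factor give, and dividing by the step recovered the reads. The deposited base mean is the average signal of a gene in its table. The authors' deposited log2 fold change (with its standard error), Wald score and p-value were, per the file headers, DESeq2 output. The log2 fold change runs control over treated in the nuclei and was turned here. The authors' deposited table called 0 members in the nuclei (of 96 genes called), 8 lower in the first knockdown (of 846), 11 higher and 7 lower in the second (of 4609) and 40 lower with overexpression (of 4057). Counting strand is not given in the sources used here, so overlapping genes, like genes with near-identical copies, are uncertain.

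Columns were mapped to groups by name. Each table was fitted alone with limma 3.58.1 (R 4.3.3, trend on mean level) on log2(value + 1), keeping genes with a mean of 0.5 or more, and called at a Benjamini-Hochberg adjusted p of 0.05 over all genes, two-sided. A fold change on this scale understates that of low genes. The difference between knockdowns came from 1 limma fit of both. Alternatives, with edgeR 4.0.16 and DESeq2 1.42.0 on recovered reads, were other pseudocounts, filters, scalings, a length trend removed, a replicate block and each library left out. Levels per kilobase used the principal transcript of GENCODE vM21, with lengths for all 85 members. Libraries within a group differed by more than sampling noise (smallest chi-square per gene 5.43). The fits were tested on simulated data. The members and lists were chosen with earlier results of these data known. Genes named were, per experiment, up to 4 called members per complex and direction by smallest p, the smallest p of a complex without calls, members called in 2 or more experiments, catalytic and isoform genes, and up to 3 called genes per other list.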

Additional observations from a re-analysis of the deposited data

Results flagged for a closer look

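Over 79 groups checked for a library far from the rest of its group, 6 had one, and chance alone gives about 1 in 20. Tet2 KD library 11 of the second knockdown accounted for 4 of them, with per-library medians of −0.62 in complex I, −0.62 in complex IV, −0.66 in complex V and −0.61 over all members on the log2 scale, each below the other 5 knockdown libraries. In the nuclei, Ndufa3 in WT 1 stood at 218 normalized counts, above 161 to 169 in the other WT libraries and below the cKO range of 287 to 483. In the second knockdown, Ndufa2 in shLuc 9 stood at 2692 where the other shLuc libraries lay between 2040 and 2254, and all Tet2 KD libraries lay lower.

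The changes of Uqcrfs1 and Cyc1 differed between the 2 knockdowns by a test of the difference itself, by 0.91 and 0.72 on the log2 scale (second minus first). In the first knockdown Uqcrfs1 was lower in 6 of 6 libraries labelled shTet2 than in any control, and in the second Cyc1 was higher in 6 of 6 Tet2 KD libraries than in any control.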

How the results depend on the processing

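Each of 53 values was recomputed under its alternatives, 984 in all, and none changed direction while called. In 870 a gene's call was unchanged, a count stayed within a set factor, or a median within the SD between libraries. Of the rest, 91 lost a call, 8 gained one, and in 15 a count or median moved further. In the nuclei 0 members were called under any alternative, DESeq2 (76 genes of all) and edgeR (1) included, and the median over the members ranged from 0.25 to 0.45. In the first knockdown 4 to 7 members were called with 1 library left out, and 3 with a replicate block (206 genes of all, and 824 in DESeq2, against 354), where Sdhc, Uqcr10 and Uqcrfs1 were lost at adjusted p of 0.079 to 0.0838. The replicate numbers share only a name there: same-numbered libraries had correlations of −0.08 to 0.07, and 1 of 6 matched best with its own number. No paired analysis was possible in the nuclei, whose groups share no numbers, or in the second knockdown, because its columns do not carry the replicate numbers of the titles and share none of their own. A term for its columns numbered 1 to 6 against 7 to 12, chosen after seeing the data, kept the same 14 calls (16.9%, against 26.4% of all genes). The synGFP and Tet2 OE columns, which do not carry the numbers of the titles either, share the numbers 4 and 6. A replicate block on them, also chosen after seeing the data, left 1 residual degree of freedom, and limma called 0 members and 0 genes of all (21 and 2846 at an unadjusted p under 0.05). In the second knockdown 11 (without shLuc 1 or Tet2 KD 10) to 29 (without Tet2 KD 11) members were called with 1 library left out (21.8% to 29% of all genes), and 23 (13 higher, 10 lower) with the length trend removed (27.7%, against 27.8% of all genes), and the median over the members ranged from −0.04 to 0.14. For the difference between knockdowns the range was 2 to 4 members (148 to 436 genes of all, against 289). With overexpression the count was 3 (without synGFP 5) to 26 with 1 library left out (642 to 3004 genes of all), 40 in DESeq2 (4083 genes of all, against 2230) and 3 with the length trend removed (3.66%, against 8.37% of all genes). The median of −1.61 moved to −2.32 with library totals, under which that of all genes moved from −0.75 to −1.31 (−0.58 with TMM scaling, −0.48 in edgeR), and to −0.49 with the length trend removed; the cause was not tested. Depth limits the low isoforms, whose fold changes rest on few reads.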
